A study of Mus musculus with 16 samples.

Results

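The genes described here are 10 regulators of the integrated stress response, Atf4, Ddit3, Trib3, Chac1, Sesn2, Atf3, Atf5, Ppp1r15a, Nupr1 and Gdf15, chosen by name. Their estimated read counts were summed over transcripts in every library, which made them 10 of the 54193 genes summed. All 10 of the 10 passed the filter on low counts and were among the 14838 genes tested.

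RNA-seq was performed on brain microvascular endothelial cells (mBMEC) isolated from mice of 8 to 10 weeks that carried a floxed Ccm3 (Pdcd10) allele and a Cre recombinase, CreERT2, under the endothelial Cdh5 promoter (Cdh5(PAC)-CreERT2/Pdcd10 fl/fl). Both genotypes shared these alleles. Cultures without 4-OH-tamoxifen (4-OHT) were called WT, and cultures given 4-OHT, which activates the recombinase, were called KO, so that Ccm3 loss and exposure to 4-OHT cannot be told apart. Each culture came from the pooled brains of several mice and had been enriched for endothelial cells with puromycin, and KO stands for a whole treated culture and not for a clone. Cells were left untreated or exposed for 24 h to 10 µM propranolol (P), a beta-adrenergic blocker, or to 100 nM rapamycin (R), an inhibitor of mTORC1, with 2 libraries each for WT+P and WT+R and 3 for each of the other groups (WT, KO, KO+R, KO+P). In cells of this kind propranolol and rapamycin were compared as drugs proposed for cerebral cavernous malformations.

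In the integrated stress response, kinases that sense unfolded protein in the endoplasmic reticulum, lack of amino acids, heme deficit or viral RNA phosphorylate eIF2alpha, which slows translation in general while the Atf4 mRNA is translated more. ATF4 pairs with other bZIP factors, among them C/EBP proteins and CHOP (the product of Ddit3), and binds composite C/EBP-ATF elements in genes of amino acid synthesis, amino acid transport and tRNA charging. mTORC1 activity also raises ATF4, by way of its mRNA. Among the other genes of the set, Trib3 encodes a pseudokinase that binds AKT and restrains ATF4, Chac1 an enzyme that degrades glutathione, Sesn2 a leucine sensor that inhibits mTORC1, Atf3 and Atf5 further bZIP factors, Ppp1r15a (GADD34) the subunit that brings protein phosphatase 1 to eIF2alpha, Nupr1 a small chromatin protein and Gdf15 a secreted stress cytokine.

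The libraries held 18.83 to 26.2 M counts, and the 10 genes held 166 to 25143 counts per library. Levels are counts-per-million (CPM), scaled between libraries by TMM factors of 0.934 to 1.041. Pdcd10, the deleted gene, had 9.72, 11.0 and 9.73 CPM in the KO libraries and 31.2 and 47.0 CPM in WT replicates 2 and 3, but 11.5 CPM in the library labelled WT replicate 1, which goes against its label. With all 3 WT libraries the log2 fold change of Pdcd10 in KO against WT was -1.56 ± 0.40 (adjusted p = 0.42). All 8 endothelial markers (Pecam1, Cdh5, Kdr, Tek, Erg, Cldn5, Flt1 and Tie1) were detected in each of the 16 libraries, with a sum of 5769 to 12060 CPM. Their sum was lowest in WT+P replicate 1 and KO+P replicate 1 (5769 and 6018 CPM). Libraries of the same replicate number deviated together from their group means, as described under the processing.

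Promoter sequences are shown because all 10 genes had higher means with propranolol in both genotypes and ATF4 acts through a defined element. The 250 bases before the transcription start, taken from RefSeq for mouse build GRCm38.p6, were searched on both strands for TGATGCAA, a core of the C/EBP-ATF element, for the looser TGATGNAA, which includes every TGATGCAA, and for TGACGTCA, the cAMP response element. TGATGCAA occurred in 0.791% of the 32851 promoter windows in the table, TGATGNAA in 3.45% and TGACGTCA in 1.55%. TGATGCAA was found in the windows of Chac1, Nupr1 and Atf3, and TGACGTCA in that of Ppp1r15a. The other 6 genes held neither motif in this window, which says nothing about elements elsewhere. In Chac1, 186 to 193 bases before the start, and in Nupr1 and Atf3, each 103 to 110 bases before the start, TGATGCAA lay on the opposite strand, so that the gene's strand reads TTGCATCA. The 4 windows follow 5′ to 3′ on the strand of the gene, with the matched motif in capitals: Chac1 from chr2:119350992-119351241 on the plus strand, Nupr1 from chr7:126625471-126625720 on the minus strand, Atf3 from chr1:191183334-191183583 on the minus strand and Ppp1r15a from chr7:45526269-45526518 on the minus strand.
Chac1: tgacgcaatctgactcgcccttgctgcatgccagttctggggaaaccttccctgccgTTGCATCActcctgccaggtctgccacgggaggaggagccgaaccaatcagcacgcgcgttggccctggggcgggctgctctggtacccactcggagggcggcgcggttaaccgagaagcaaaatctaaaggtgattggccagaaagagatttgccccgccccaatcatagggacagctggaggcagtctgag
Nupr1: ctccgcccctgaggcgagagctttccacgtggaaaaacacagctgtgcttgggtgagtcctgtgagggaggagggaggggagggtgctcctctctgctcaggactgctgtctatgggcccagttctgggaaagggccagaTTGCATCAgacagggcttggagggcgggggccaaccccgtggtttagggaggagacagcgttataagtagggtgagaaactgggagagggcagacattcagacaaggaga
Atf3: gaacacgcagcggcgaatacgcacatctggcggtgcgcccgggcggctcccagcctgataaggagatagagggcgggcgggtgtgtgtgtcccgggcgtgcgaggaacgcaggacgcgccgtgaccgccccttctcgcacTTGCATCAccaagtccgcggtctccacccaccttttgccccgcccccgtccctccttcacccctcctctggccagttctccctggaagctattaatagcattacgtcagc
Ppp1r15a: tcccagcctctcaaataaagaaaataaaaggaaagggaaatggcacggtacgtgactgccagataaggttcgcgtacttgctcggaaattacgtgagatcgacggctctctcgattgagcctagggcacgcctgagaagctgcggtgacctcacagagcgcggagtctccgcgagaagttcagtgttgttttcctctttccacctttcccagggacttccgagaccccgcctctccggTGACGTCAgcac

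The level of the regulators relative to each other was compared in transcripts-per-million (TPM), which takes length into account. In WT cells, Atf4 had the highest level of the 10, 290.1 ± 54.1 TPM (SD, n = 3), followed by Gdf15 with 196.3 ± 46.0 TPM. Ppp1r15a, Atf5, Ddit3, Atf3 and Trib3 followed between 88.9 and 61.6 TPM, and Sesn2, Nupr1 and Chac1 were lowest, between 31.3 and 26.3 TPM. The SD ranges overlapped between Atf4 and Gdf15, and between neighbours from Ppp1r15a to Trib3 and from Sesn2 to Chac1. In KO+P cells the order was Gdf15 with 828.2 ± 268.9 TPM, Atf4 with 674.6 ± 288.3 TPM and Chac1 with 456.8 ± 270.0 TPM (SD, n = 3), and the ranges of these neighbours overlapped. Chac1 thus stood at rank 10 of 10 in WT cells, at rank 8 in KO cells and at rank 3 in KO+P cells, while Sesn2 was at rank 10 in KO+P cells with 36.6 ± 5.81 TPM.

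Propranolol-treated cells had higher levels of these regulators than untreated cells of the same genotype. All 10 mean levels were higher in KO+P than in KO cells, with a median log2 fold change of 1.75 (range 0.40 to 3.75) against -0.01 for all tested genes, and all 10 were higher in WT+P than in WT cells, with a median of 2.20 (range 0.49 to 3.88) against 0.00. Treated and untreated libraries did not overlap for 8 of the 10 in KO cells, where 9.58% of all tested genes were higher without overlap, and for 7 of the 10 in WT cells, where 10.8% were. None of the 10 passed the thresholds used here, a Benjamini-Hochberg adjusted p under 0.05 over all tested genes and a change above 1.5-fold in edgeR's quasi-likelihood test, in either genotype. At these thresholds 0.00674% of all tested genes, a single gene that was lower with propranolol, passed in each of the 2 comparisons, and 0.0% were called higher. At an unadjusted p under 0.05, 8 regulators were higher in KO+P cells, against 6.93% of all tested genes, and 9 in WT+P cells, against 6.7%. DESeq2 called 6 of the 10 higher in KO+P cells (Atf4, Ddit3, Chac1, Atf5, Ppp1r15a and Nupr1), against 1.0% of its genes, and 6 of the 10 in WT+P cells (Ddit3, Chac1, Atf3, Atf5, Ppp1r15a and Nupr1), against 0.816%. With the replicate number as a block, DESeq2 called 8 in KO+P cells, against 3.1%, and 3 in WT+P cells (Chac1, Nupr1 and Atf4), against 1.05%.

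**Figure D1:**
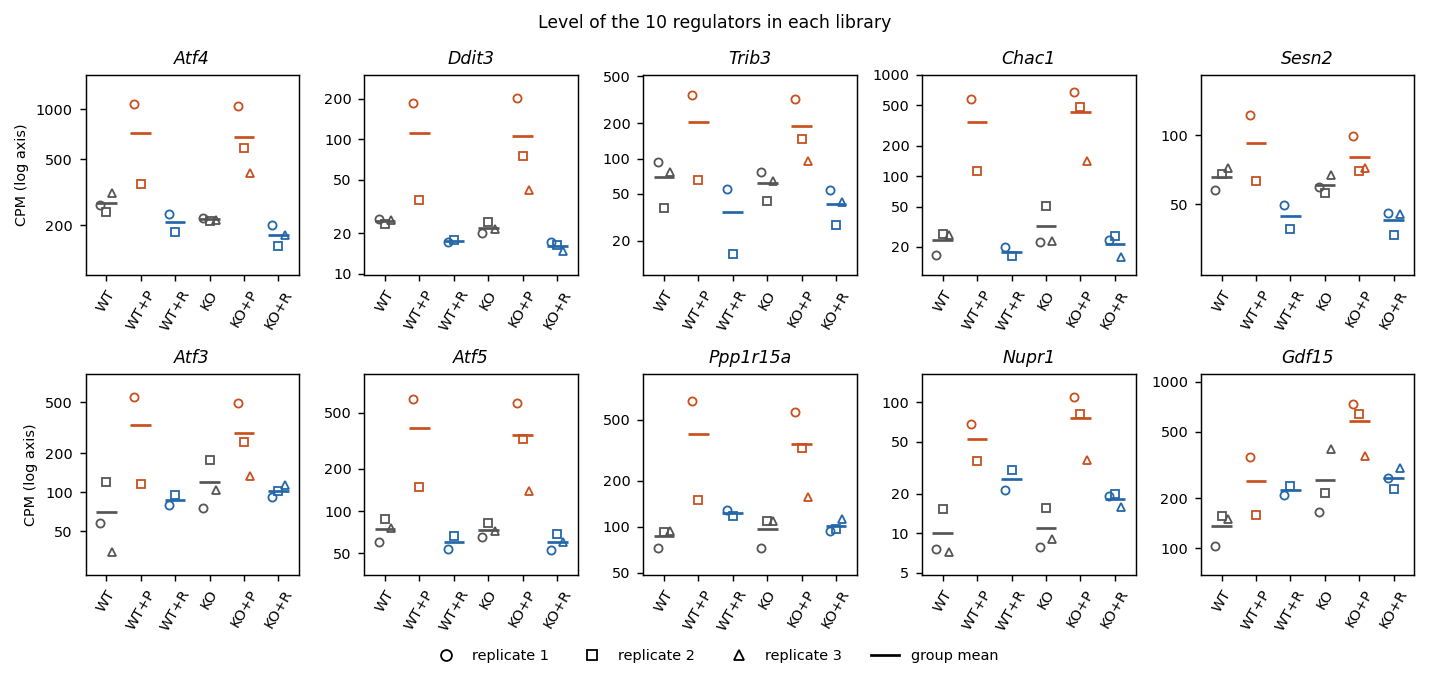
Level of each regulator in every library, in CPM on a log axis with a scale of its own per gene, by group (WT and KO untreated, +P propranolol, +R rapamycin). Points are libraries, their shape gives the replicate number and bars are group means; replicate 1 of WT+P and KO+P lies highest of its group for all 10 genes, and WT+P replicate 2 lies near the untreated libraries for Trib3, Sesn2, Atf3 and Gdf15.

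Atf4, the transcription factor at the centre of the response, had 220.4, 213.7 and 216.5 CPM in KO replicates 1 to 3 and 1047, 582.6 and 414.1 CPM in KO+P replicates 1 to 3. In WT cells it had 265.3, 242.0 and 314.2 CPM, and in WT+P replicates 1 and 2 it had 1078 and 355.9 CPM. Every propranolol library thus lay above every untreated library of its genotype, with replicate 1 far above the rest. The log2 fold change was 1.65 ± 0.37 (SE) in KO cells, with an adjusted p of 0.19, and 1.39 ± 0.40 in WT cells, with an adjusted p of 0.335.

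Ddit3, which encodes the proapoptotic factor CHOP, had 20.2, 24.2 and 21.5 CPM in KO and 201.9, 75.6 and 41.9 CPM in KO+P replicates 1 to 3. In WT it had 25.4, 23.7 and 25.0 CPM, against 186.3 and 35.2 CPM in WT+P. The untreated libraries lay within a narrow range and all 5 propranolol libraries lay above them, without overlap. Its log2 fold change was 2.28 ± 0.56 in KO cells (adjusted p = 0.204) and 2.16 ± 0.59 in WT cells (adjusted p = 0.316). Of the annotated exonic bases of Ddit3, 82.4% are shared with other gene records. Among them are Mars1 on the opposite strand and another record named Ddit3, which held 0.0 counts. The libraries were unstranded, so that the division of reads between Ddit3 and its neighbours is uncertain.

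Trib3 had 76.2, 43.6 and 65.0 CPM in KO and 320.5, 147.3 and 95.4 CPM in KO+P. In WT it had 94.4, 38.3 and 76.6 CPM, against 345.6 and 65.3 CPM in WT+P. The groups did not overlap in KO cells but did in WT cells, where WT+P replicate 2 lay below WT replicates 1 and 3. The level of Trib3 was lowest in replicate 2 of all 4 groups that were not given propranolol. Its log2 fold change was 1.61 ± 0.64 in KO cells (adjusted p = 0.354) and 1.56 ± 0.69 in WT cells (adjusted p = 0.49).

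Chac1 had the largest difference of the 10. It had 22.4, 51.2 and 22.9 CPM in KO and 670.2, 484.8 and 142.2 CPM in KO+P. In WT it had 16.8, 26.9 and 26.3 CPM, against 574.4 and 112.4 CPM in WT+P. Each propranolol library exceeded the highest untreated library of its genotype, also the lowest, WT+P replicate 2. The level in KO+P was 13.4 times that in KO (log2 fold change 3.75 ± 0.65, adjusted p = 0.0825), and the level in WT+P was 14.7 times that in WT (3.88 ± 0.68, adjusted p = 0.116).

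Sesn2 had the smallest difference, with 59.3, 56.0 and 67.4 CPM in KO and 99.1, 69.9 and 72.2 CPM in KO+P. In WT it had 57.8, 67.9 and 72.2 CPM, against 122.6 and 63.2 CPM in WT+P. KO+P libraries lay above all KO libraries, by a small margin outside replicate 1, and WT+P replicate 2 lay below 2 of the 3 WT libraries. The log2 fold changes were 0.40 ± 0.22 in KO (adjusted p = 0.455) and 0.49 ± 0.24 in WT cells (adjusted p = 0.52).

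The bZIP factors Atf3 and Atf5 differed in how well groups separated. Atf3 had 74.8, 178.5 and 104.9 CPM in KO and 490.9, 247.2 and 133.2 CPM in KO+P. In WT it had 57.4, 119.1 and 34.2 CPM, against 547.8 and 116.4 CPM in WT+P. Groups overlapped for Atf3 in both genotypes, because untreated replicate 2 was high. Atf5 had 64.9, 82.9 and 71.9 CPM in KO and 584.1, 327.9 and 138.3 CPM in KO+P. In WT it had 59.9, 87.9 and 76.1 CPM, against 626.2 and 147.5 CPM in WT+P. For Atf5 no propranolol library came within the untreated range. The log2 fold changes of Atf3 were 1.28 ± 0.60 in KO (adjusted p = 0.395) and 2.24 ± 0.65 in WT cells (adjusted p = 0.365), and those of Atf5 were 2.26 ± 0.50 (adjusted p = 0.19) and 2.37 ± 0.54 (adjusted p = 0.238).

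Ppp1r15a, whose product lets translation resume, had 72.6, 108.5 and 108.6 CPM in KO and 561.4, 329.9 and 155.5 CPM in KO+P. In WT it had 72.7, 93.0 and 94.1 CPM, against 663.2 and 149.3 CPM in WT+P. Untreated libraries were close to each other and all propranolol libraries were above them. Its log2 fold change was 1.85 ± 0.48 in KO (adjusted p = 0.237) and 2.23 ± 0.52 in WT cells (adjusted p = 0.267).

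Nupr1 and Gdf15 are both expressed in stressed cells, Gdf15 as a circulating signal. Nupr1 had 7.86, 15.7 and 9.10 CPM in KO and 108.4, 80.9 and 36.0 CPM in KO+P. In WT it had 7.64, 15.2 and 7.22 CPM, against 68.6 and 35.4 CPM in WT+P. Groups were separate in both genotypes, and the level in KO+P was 6.90 times that in KO (log2 fold change 2.79 ± 0.44, adjusted p = 0.0576) and in WT+P 5.18 times that in WT (2.37 ± 0.46, adjusted p = 0.132). In the fit with the replicate number as a block, Nupr1 was the only regulator of the 10 that passed in KO+P against KO, where 0.135% of all tested genes were called higher, and none passed in WT+P against WT, where 0.0741% were called higher. Gdf15 had 164.5, 214.1 and 394.8 CPM in KO and 737.5, 643.4 and 358.5 CPM in KO+P. In WT it had 104, 156.8 and 150.4 CPM, against 351.3 and 158.2 CPM in WT+P. KO replicate 3 lay above KO+P replicate 3, and WT+P replicate 2 was within 2 CPM of WT replicate 2. The log2 fold changes of Gdf15 were 1.17 ± 0.36 in KO (adjusted p = 0.314) and 0.89 ± 0.40 in WT cells (adjusted p = 0.49).

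The spread between propranolol libraries was large, and the count of regulators past the thresholds depended on a single library in each genotype. The shares of all tested genes called in fits with libraries left out were not recorded. A gain in calls therefore cannot be read as particular to these regulators. Without KO+P replicate 3, 6 of the 10 passed in KO+P against KO, and without WT+P replicate 2, 8 passed in WT+P against WT, where WT+P was then a lone library assumed to vary like the other groups. Without WT+P replicate 1 none passed, and the log2 fold changes of Trib3 and Sesn2 in WT cells turned to -0.10 and -0.06.

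Libraries with the same replicate number were compared directly. The untreated library labelled WT replicate 1 had 11.5 CPM of Pdcd10, like KO libraries, against 60.8 CPM in WT+P replicate 1. Its pairs with WT+P and WT+R may therefore cross genotypes, which was not tested. Against the untreated library of the same genotype and number, the median log2 ratio of the 10 regulators under propranolol was 3.02 in WT replicate 1, 2.84 in KO replicate 1, 1.62 in KO replicate 2, 0.74 in KO replicate 3 and 0.62 in WT replicate 2, while the median of all tested genes was between -0.01 and 0.00. Atf4, Ddit3, Trib3, Chac1, Atf5, Ppp1r15a and Nupr1 were higher in 5 of 5 pairs, as were 14.6% of all tested genes. Sesn2, Atf3 and Gdf15 were higher in 4 of 5, with log2 ratios of -0.10 and -0.03 for Sesn2 and Atf3 in WT replicate 2 and of -0.14 for Gdf15 in KO replicate 3. Chac1 had the largest ratio of the 10 in each of WT replicate 1, WT replicate 2, KO replicate 1, KO replicate 2 and KO replicate 3, from 2.06 to 5.09 on the log2 scale. Nupr1 ranged from 1.22 to 3.79 and Atf4 from 0.56 to 2.25.

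**Figure D2:**
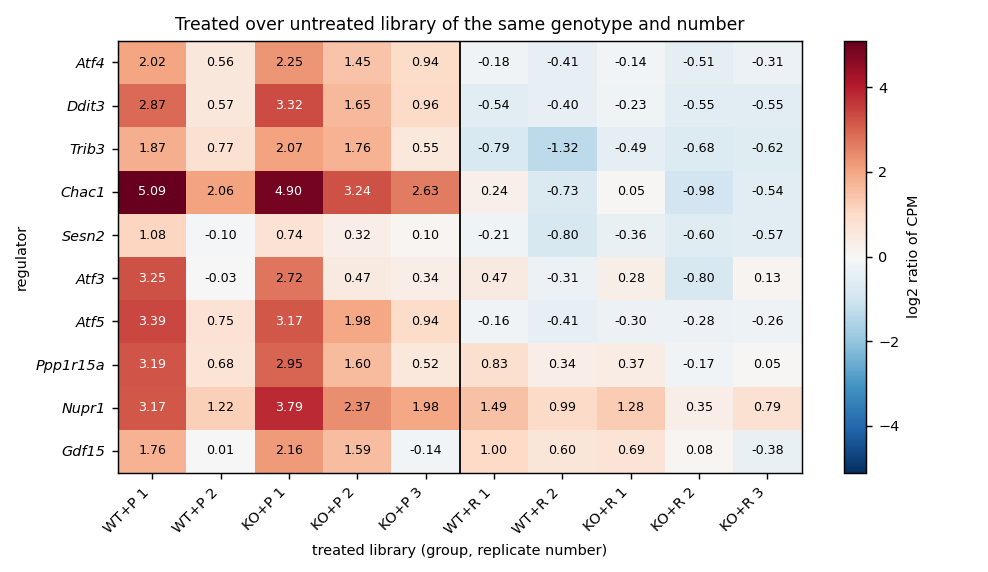
Log2 ratio of CPM in each treated library over the untreated library of the same genotype and replicate number, with regulators in the vertical direction and treated libraries in the horizontal direction; red is higher and blue lower in the treated library. Propranolol columns are darkest for replicate 1 of both genotypes (medians 3.02 and 2.84), and rapamycin columns are pale, with Atf4, Ddit3, Trib3, Sesn2 and Atf5 below 0 and Nupr1 above 0 in all 5. WT replicate 1, the untreated library for WT+P and WT+R replicate 1, had the Pdcd10 level of KO cells.

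Replicate 1 of WT+P and of KO+P, the 2 libraries with the highest levels of 8 of the 10 regulators (for Nupr1 and Gdf15, KO+P replicate 2 lay above WT+P replicate 1, and for Gdf15 KO replicate 3 and KO+P replicate 3 did too), had the lowest sums of the 8 endothelial markers (5769 and 6018 CPM, against 7526 to 9045 CPM in the other propranolol libraries and 9043 to 12060 CPM in the untreated ones). Mitochondrial transcripts took 0.97% and 1.66% of counts in these 2, against 1.48% and 2.30% in the untreated libraries of the same number. The sum of 8 mural cell markers (Pdgfrb, Rgs5, Kcnj8, Abcc9, Acta2, Tagln, Myh11 and Cspg4) was 406.5 and 1394 CPM in WT+P against 94.7 to 834.7 CPM in WT, and 112.2 to 431.8 CPM in KO+P against 67.5 to 201.6 CPM in KO, and came mostly from Acta2 and Tagln. Of 5 astrocyte markers (Gfap, Aqp4, Slc1a3, Aldh1l1 and Gja1), whose sum was 71.6 to 109.3 CPM under propranolol and 32.7 to 77.7 CPM in untreated cells, Gja1 made up most, and Gfap and Aqp4 were at 0 in all 5 propranolol libraries. The sums of markers of fibroblasts (2.64 to 186.2 CPM), microglia (1.88 to 26.1 CPM), oligodendrocytes (0.552 to 2.04 CPM) and neurons (1.75 to 28.6 CPM, the highest in KO+P replicate 1) were low in all 16 libraries. The part of these differences in the values of the regulators was not tested. In bulk libraries such as these, fewer cells of a type and less RNA per cell cannot be told apart.

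With rapamycin the regulators lay on both sides of the untreated level, 7 of the 10 with a lower mean in KO+R than in KO and 6 of the 10 in WT+R than in WT cells. None of the 10 passed the thresholds in KO+R against KO, where 1.51% of all tested genes passed, nor in WT+R against WT, where 1.4% did. At an unadjusted p under 0.05 only Sesn2 was lower in KO+R cells (6.55% of all tested genes were), and in WT+R cells Sesn2 was lower (6.47%) and Nupr1 higher (6.18%). DESeq2 called none in either comparison, and DESeq2 with the replicate block called Nupr1 higher and Trib3 lower in WT+R cells, beside 2.94% and 3.72% of its genes. The mural marker sum was 1463 to 2488 CPM in WT+R and 268.9 to 449.8 CPM in KO+R. The endothelial marker sum was 7127 and 7783 CPM in WT+R, below the 9043 to 12060 CPM of WT, and 8744 to 9868 CPM in KO+R against 9714 to 10610 CPM in KO. The part of these sums in the values of the regulators was not tested. Atf4 had 199.6, 150.2 and 174.3 CPM in KO+R and 234.6 and 181.6 CPM in WT+R, which lay below all untreated libraries of the genotype. The log2 fold change of Atf4 was -0.31 ± 0.36 in KO and -0.40 ± 0.41 in WT cells (adjusted p = 0.818 and 0.786).

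Ddit3 had 17.2, 16.5 and 14.7 CPM in KO+R and 17.4 and 17.9 CPM in WT+R, also without overlap with the untreated libraries (log2 fold changes -0.45 ± 0.54 and -0.48 ± 0.61). Sesn2 had 46.1, 36.9 and 45.5 CPM in KO+R and 49.9 and 39 CPM in WT+R, again below every untreated library, with log2 fold changes of -0.51 ± 0.22 (adjusted p = 0.35) and -0.57 ± 0.25 (adjusted p = 0.352). These 3 were the regulators that lay lower without overlap in each genotype, where 13.2% of all tested genes did so in KO and 14.7% in WT cells. Trib3 had 54.2, 27.1 and 42.4 CPM in KO+R and 54.6 and 15.3 CPM in WT+R, overlapping with untreated cells, but in each pair of the same number it was lower with rapamycin, by 0.49 to 1.32 on the log2 scale.

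By replicate number, Atf4, Ddit3, Trib3, Sesn2 and Atf5 were lower with rapamycin in 5 of 5 pairs, which 22.9% of all tested genes also were, and their log2 ratios lay between -0.14 and -1.32. Nupr1 was the only regulator that was higher in 5 of 5, as were 18.5% of all tested genes. It had 19.1, 19.9 and 15.8 CPM in KO+R and 21.5 and 30.1 CPM in WT+R, above every untreated library of the genotype, as 10.9% of all tested genes were in KO and 14.0% in WT cells, with log2 fold changes of 0.75 ± 0.42 in KO (adjusted p = 0.516) and 1.36 ± 0.46 in WT cells (adjusted p = 0.189). Chac1, Atf3, Ppp1r15a and Gdf15 had ratios on both sides of 0. In WT cells Ppp1r15a and Gdf15 also lay higher without overlap, with 129.5 and 118.1 CPM for Ppp1r15a in WT+R (log2 fold change 0.52 ± 0.52, adjusted p = 0.782) and 208.4 and 238.3 CPM for Gdf15 (0.70 ± 0.40, adjusted p = 0.526), whereas both overlapped in KO cells (0.06 ± 0.47 and 0.04 ± 0.36). The directions within the set thus differed with rapamycin.

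The comparison of the drugs with each other separated the regulators most clearly. In KO cells, Chac1, Ddit3, Atf5, Nupr1, Atf4 and Sesn2 were lower with rapamycin than with propranolol past the thresholds, 6 of the 10, where 2.51% of all tested genes were called lower. None of the 10 was higher, and in none did KO+R libraries overlap with KO+P libraries, as in 13.9% of all tested genes. All 10 had an unadjusted p under 0.05, against 11.8% of all tested genes that were lower. The median log2 fold change was -2.0 (range -4.32 to -0.91) against -0.02 for all tested genes. Chac1 was lower by 4.32 ± 0.67 on the log2 scale (adjusted p = 0.00445), which is a 20.0-fold difference between 21.6 ± 5.23 CPM in KO+R and 432.4 ± 267.9 CPM in KO+P (SD, n = 3).

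Of the other called regulators, the log2 fold changes from KO+P to KO+R were -2.72 ± 0.57 for Ddit3 (adjusted p = 0.0186), -2.54 ± 0.51 for Atf5 (adjusted p = 0.0156) and -2.04 ± 0.43 for Nupr1 (adjusted p = 0.0185). Those of Atf4 and Sesn2 were -1.96 ± 0.37 (adjusted p = 0.0123) and -0.91 ± 0.22 (adjusted p = 0.0347). Ppp1r15a (-1.79 ± 0.48, adjusted p = 0.052), Trib3 (-2.19 ± 0.65, adjusted p = 0.0749), Gdf15 (-1.13 ± 0.36, adjusted p = 0.0957) and Atf3 (-1.50 ± 0.60, adjusted p = 0.173) did not pass. With the replicate block 8 passed, Trib3 and Ppp1r15a in addition, where 5.62% of all tested genes were called lower. DESeq2 called 9, all but Atf3, with the block and without it, where 6.4% and 4.42% of its genes were called lower. The count was 1, Chac1, when only the libraries of these 2 groups were fitted. It was 4 without KO+P replicate 2, 9 without KO+P replicate 3, 2 without KO+R replicate 1, and 1 without KO+P replicate 1, KO+R replicate 2 or KO+R replicate 3.

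In WT cells, Chac1 was the only regulator that fell past the thresholds from WT+P to WT+R, by 4.25 ± 0.81 on the log2 scale (adjusted p = 0.0268), where 0.815% of all tested genes were called lower. All 10 had lower means with rapamycin, with a median log2 fold change of -1.86, 9 did not overlap, against 19.4% of all tested genes, and 8 had an unadjusted p under 0.05, against 8.76%. The exception was Gdf15, with 208.4 and 238.3 CPM in WT+R and 351.3 and 158.2 CPM in WT+P (log2 fold change -0.19 ± 0.44, adjusted p = 0.912). Atf5 (-2.69 ± 0.63, adjusted p = 0.056), Sesn2 (-1.06 ± 0.27, adjusted p = 0.0765), Atf4 (-1.79 ± 0.45, adjusted p = 0.0767) and Ddit3 (-2.65 ± 0.69, adjusted p = 0.0847) lay just outside the threshold. With the replicate block 6 passed (Chac1, Ddit3, Atf5, Atf4, Sesn2 and Trib3), where 2.88% of all tested genes were called lower. DESeq2 called 7 (2.71% of its genes), and 6 with the block (4.93%). None passed without WT+P replicate 1, without WT+R replicate 1 or without WT+R replicate 2, and 7 passed without WT+P replicate 2. By replicate number, 9 of the 10 regulators were lower with rapamycin than with propranolol in 5 of 5 pairs of both genotypes, as were 21.0% of all tested genes. The comparisons of each drug with untreated cells and of the drugs with each other share libraries.

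**Figure D3:**
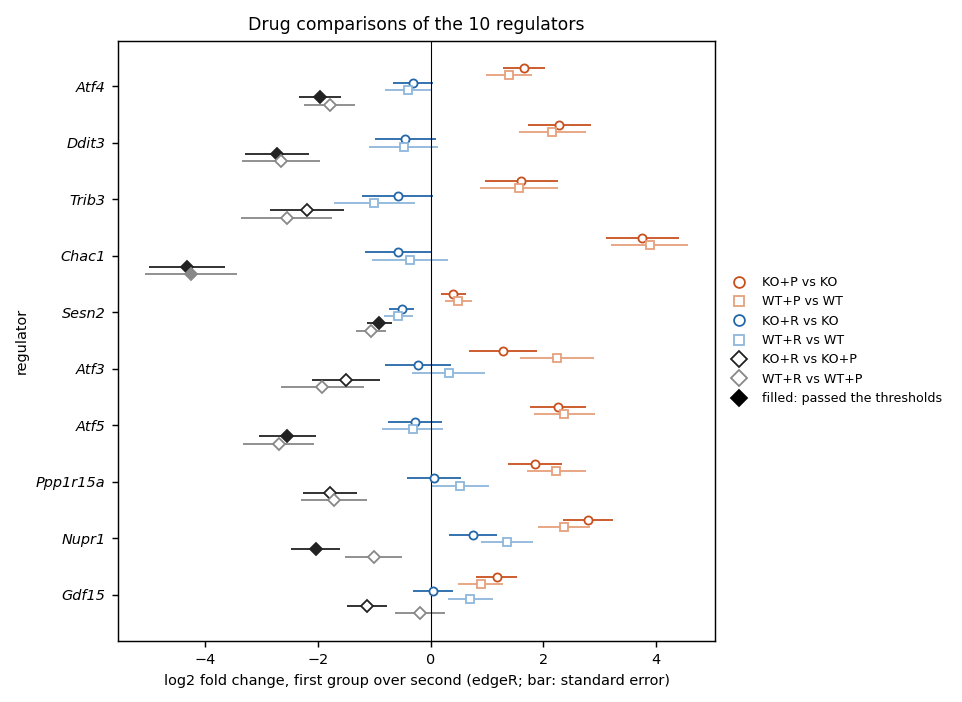
Log2 fold change of each regulator (horizontal axis) in the 6 drug comparisons, as estimated by edgeR with its standard error as a bar; filled symbols passed an adjusted p under 0.05 and a 1.5-fold change. Propranolol against untreated cells (orange) lies to the right for all 10 genes, from 0.40 to 3.88, with no filled symbol, and rapamycin against propranolol (black and grey diamonds) lies to the left, with 6 filled symbols in KO and 1 in WT cells.

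Loss of Ccm3 was compared within each treatment. No regulator passed the thresholds in KO against WT, where 0.00674% of all tested genes were called, and 1, Gdf15, had an unadjusted p under 0.05, against 3.3% of all tested genes that were higher. Gdf15 had 104, 156.8 and 150.4 CPM in WT and 164.5, 214.1 and 394.8 CPM in KO, a log2 fold change of 0.91 ± 0.36 (adjusted p = 0.717) and without overlap. Atf4 was the only other regulator without overlap, at a lower level in KO (log2 fold change -0.34 ± 0.36, adjusted p = 0.996). Groups did not overlap upwards for 6.69% and downwards for 6.5% of all tested genes. Atf3 had a log2 fold change of 0.77 ± 0.59 (adjusted p = 0.996). Because the library labelled WT replicate 1 had the Pdcd10 level of KO cells, the comparison was repeated without it, and again none of the 10 passed, nor did any in WT+P or WT+R against WT without it. DESeq2, with and without the replicate block, called none.

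In KO+P against WT+P none passed in edgeR or DESeq2, where 0.0% of all tested genes were called by edgeR, and Gdf15 alone had an unadjusted p under 0.05, as did 2.7% of all tested genes in this direction (log2 fold change 1.19 ± 0.42, adjusted p = 0.676), with 737.5, 643.4 and 358.5 CPM in KO+P and 351.3 and 158.2 CPM in WT+P. Its groups did not overlap, as in 7.8% of all tested genes. The pairs of the same number differed from each other. In replicate 1, 4 regulators were higher and 6 lower in KO+P, with a median log2 ratio of -0.07. In replicate 2, all 10 were higher in KO+P, with a median of 1.15 and a range of 0.15 to 2.11. In KO+R against WT+R none passed in either tool, none had an unadjusted p under 0.05 in edgeR (0.0% and 5.72% of all tested genes), and the log2 fold changes ranged from -0.50 to 0.26. Ddit3, Ppp1r15a and Nupr1 lay lower in KO+R without overlap (-0.13 ± 0.60, -0.30 ± 0.52 and -0.50 ± 0.46). The share of all tested genes that did so was not recorded, so that this cannot be read as particular to these regulators. The difference between genotypes in the response to propranolol had log2 values from -0.96 to 0.41, and that in the response to rapamycin from -0.67 to 0.42. None of the 10 passed either test of this interaction, none had an unadjusted p under 0.05 in edgeR, and DESeq2 called none. Of all tested genes 0.0% passed each interaction, and 0.721% and 0.762% had an unadjusted p under 0.05 for propranolol and rapamycin. Standard errors were wide, from 0.33 (Sesn2) to 0.94 (Trib3) for the interaction with propranolol, so that a smaller difference between genotypes was not detectable.

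The known targets and partners of ATF4 were described by lists. Of 13 enzymes of amino acid synthesis, all 13 fell past the thresholds from KO+P to KO+R cells, with a median log2 fold change of -2.50. They included Aldh1l2 (-4.58 ± 1.01) and Mthfd2 (-4.24 ± 0.72) of mitochondrial folate metabolism, Psat1 of serine synthesis (-3.81 ± 0.59) and Asns, asparagine synthetase (-2.99 ± 0.51). Aldh1l2 was near the floor in KO+R cells, with 0.813 ± 0.461 CPM against 19.7 ± 13.7 CPM in KO+P (SD, n = 3). So was the transporter gene Slc7a3 named next, with 0.519 ± 0.165 CPM against 15.8 ± 15.2 CPM. All 9 amino acid transporters were lower, and 8 passed the thresholds. Among the 8 were Slc7a3, for cationic amino acids (-4.91 ± 1.01), Slc6a9, for glycine (-4.23 ± 0.76), Slc7a11, for cystine (-3.40 ± 0.74), and Slc7a5, for large neutral amino acids (-2.99 ± 0.36), while Slc38a2, named here as the exception, was not called. All 12 aminoacyl-tRNA synthetases were lower, Iars1 included, whose level is described below. Of the 12, 8 passed the thresholds, lower by 1.02 to 1.32 on the log2 scale, such as Nars1 (-1.32 ± 0.28) and Cars1 (-1.22 ± 0.21). The shares that passed stand beside 2.51% of all tested genes called lower. The counts of enzymes, transporters and synthetases that passed were 2, 2 and 0 when only these 2 groups were fitted, and 0, 1 and 0 without the libraries numbered 1. Mars1, in this list, shares 47.2% of its exonic bases with Ddit3. Of 13 further targets that were tested (Fgf21 was not), 11 were lower. Of these, 3 passed the thresholds, Stc2 (-2.43 ± 0.60), Vldlr (-1.81 ± 0.33) and Tnfrsf10b (-0.68 ± 0.15), the last the death receptor induced by CHOP. In WT+R against WT+P all 13 enzymes, 9 transporters and 12 synthetases and 11 of 13 further targets were lower. Of these only Mthfd2, Psat1, Slc7a5 and Vldlr passed the thresholds, beside 0.815% of all tested genes called lower. None of these calls was made when only these 2 groups were fitted.

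**Figure D4:**
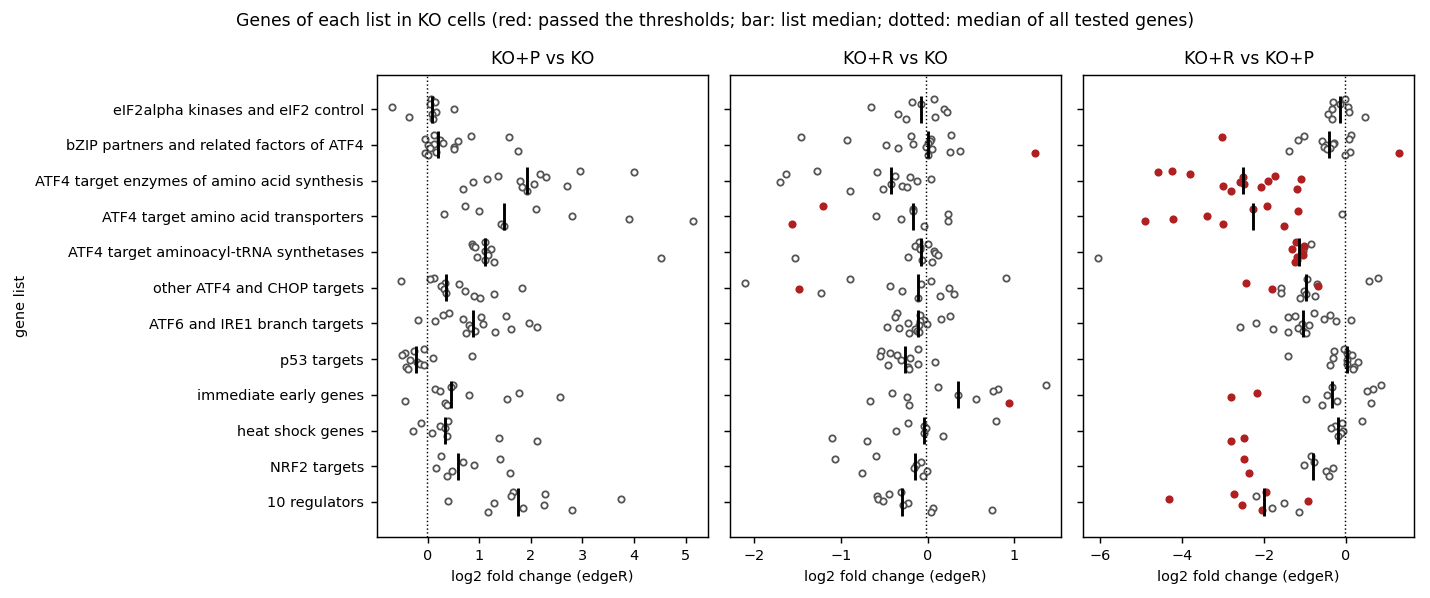
Log2 fold changes of the genes of 11 lists and of the 10 regulators in 3 comparisons of KO cells; points are genes (red if they passed the thresholds), bars are medians of the list and the dotted line is the median of all tested genes. In KO+R against KO+P the enzymes, transporters and synthetases lie left of the line with medians of -2.50, -2.26 and -1.13, and in KO+P against KO the same 3 lists lie right of it with no red point.

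Against untreated cells, none of the genes of these 4 lists passed in KO+P or WT+P cells in edgeR, where 0.00674% of all tested genes did. At an unadjusted p under 0.05, 12 of 13 enzymes, 9 of 9 transporters, 12 of 12 synthetases and 6 of 13 further targets were higher in KO+P than in KO cells, against 6.93% of all tested genes. In WT+P cells they numbered 11, 8, 12 and 7, against 6.7%. The synthetases include Iars1, with 1.36 CPM in KO+P and 1.63 CPM in WT+P but 0.0528 CPM in KO and 0.0 CPM in WT, which could pass the filter on low counts only through the propranolol libraries and is no support for the count. DESeq2 called 11 enzymes, 7 transporters, 9 synthetases and 3 further targets in KO+P cells, beside 1.0% of its genes, and 9, 4, 8 and 1 in WT+P cells, beside 0.816%. The medians were 1.92, 1.47, 1.12 and 0.35 in KO+P and 2.01, 1.66, 1.13 and 0.37 in WT+P cells. In pairs of the same number, all 13 enzymes, all 9 transporters and all 12 synthetases were higher in each of the 5 propranolol libraries, the enzymes with medians of 2.7 and 2.48 in replicate 1 of WT and KO, 0.66 and 1.80 in replicate 2, and 0.71 in KO replicate 3. With rapamycin, Slc7a5 fell from 93.6 ± 6.48 to 31.8 ± 6.38 CPM in KO cells (log2 fold change -1.56 ± 0.34, adjusted p = 0.0405) and also fell in WT cells (-1.78 ± 0.40, adjusted p = 0.0481). Vldlr fell in both genotypes (-1.49 ± 0.33 and -1.98 ± 0.38) and Slc1a5, a glutamine transporter, in KO cells (-1.21 ± 0.25), beside 0.802% and 0.748% of all tested genes called lower. In KO cells 0 to 1 transporters and none of the further targets passed with single libraries left out. None of either passed there without the libraries numbered 1. In WT cells no transporter, Slc7a5 included, passed with any single WT library left out. When only the groups compared were fitted, 2 transporters and 2 further targets passed in KO cells, and 1 and 0 in WT cells.

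Targets of the ATF6 and IRE1 branches of the unfolded protein response, 16 genes such as the chaperone gene Hspa5 (BiP), were not called by edgeR in any drug comparison. At an unadjusted p under 0.05, 8 were higher in KO+P and 11 in WT+P than in untreated cells, and 10 were lower in KO+R than in KO+P, beside 6.93%, 6.7% and 11.8% of all tested genes. DESeq2 called 1, 2 and 5 of them, beside 1.0%, 0.816% and 4.42% of its genes. In pairs of the same number their median under propranolol was 2.02 and 1.75 in replicate 1 of WT and KO, 0.06 and 0.45 in replicate 2, and -0.02 in KO replicate 3, and 16, 15, 10, 14 and 8 of the 16 were higher in these libraries. Hspa5 had 449.1 CPM in KO on average and 1937 ± 1911 CPM in KO+P (SD, n = 3).

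Upstream of ATF4, none of 9 genes of eIF2alpha kinases and eIF2 control was called in any drug comparison in edgeR or DESeq2. At an unadjusted p under 0.05 there were 0 to 3. The 3 were in KO+R against KO+P, 1 higher and 2 lower, where 11.8% of all tested genes were lower. The 4 kinase genes, named here after their values were seen, Eif2ak1, Eif2ak2, Eif2ak3 and Eif2ak4 had log2 fold changes of 0.16 ± 0.11, -0.70 ± 0.40, 0.09 ± 0.15 and 0.15 ± 0.16 in KO+P against KO, which concern mRNA and not kinase activity. In other comparisons Eif2ak3 differed more, with 0.37 ± 0.16 in WT+P against WT (adjusted p = 0.49). It had -0.34 ± 0.15 in KO+R against KO (adjusted p = 0.345) and -0.55 ± 0.18 in WT+R against WT+P (adjusted p = 0.169). Eif2ak4 had -0.49 ± 0.20 in WT+R against WT+P (adjusted p = 0.262). Of 16 bZIP partners and related factors, Cebpd rose with rapamycin in KO cells (1.24 ± 0.26, adjusted p = 0.0316) and was higher in KO+R than in KO+P (1.31 ± 0.26), beside 0.708% and 1.58% of all tested genes called higher, and Fosl1 was lower in KO+R than in KO+P (-3.02 ± 0.68). Cebpd did not pass in KO+R against KO when only these groups were fitted. Cebpb, a dimer partner of ATF4, had a log2 fold change of 1.76 ± 0.61 in KO+P against KO (adjusted p = 0.326). Of 12 p53 targets, which were listed because Sesn2, Atf3 and Gdf15 are also induced by p53, none was called by edgeR in the drug comparisons, and the median was -0.23 in KO+P against KO. At an unadjusted p under 0.05 there were 0 to 2. In KO+P against KO 1 was higher, beside 6.93% of all tested genes, and 1 lower. In KO+R against KO+P 2 were lower, beside 11.8%. DESeq2 called 1 in KO+R against KO+P, where 4.42% of its genes were called lower. Of 11 immediate early genes, Egr3 and Nr4a1 were lower in KO+R than in KO+P, Nr4a1 was lower in WT+R than in WT+P, and Junb was higher with rapamycin in both genotypes, beside 2.51% and 0.815% of all tested genes called lower and 0.708% and 0.647% called higher. In KO+R against KO no gene of this list passed when any single library of these groups was left out. Of 9 heat shock genes, Hspa1a and Hspa1b, near-identical copies whose reads cannot be cleanly divided, and of 8 NRF2 targets Hmox1 and Srxn1, were lower in KO+R than in KO+P, and Hspb1 was higher in WT+R than in WT cells, where 0.647% of all tested genes were called higher. At an unadjusted p under 0.05, 5 NRF2 targets, 3 immediate early, 6 bZIP and 2 heat shock genes were higher in KO+P than KO. In WT+P against WT they numbered 3, 6, 6 and 2. These counts stand beside 6.93% and 6.7% of all tested genes. All 8 NRF2 targets had positive log2 fold changes with propranolol in both genotypes.

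Genes with the most similar pattern were sought over the 16 libraries, after the mean of each replicate number was subtracted, by Pearson correlation of log2 CPM with the mean standardized level of the 10 regulators. The 5 nearest were Asns (r = 0.992), Shmt2 (r = 0.987), Cars1, Ifrd1 and Herpud1 (r = 0.983 each). The correlations describe these libraries, which share treatments and replicate numbers. Asns had 42.5 ± 7.02 CPM in KO, 276.3 ± 175.1 in KO+P and 34.8 ± 3.58 in KO+R (SD, n = 3). Herpud1, a gene of degradation of proteins from the endoplasmic reticulum, had 67.6 ± 4.57, 207.4 ± 134.8 and 61.0 ± 0.99 CPM in the same groups.

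A single protein-coding transcript held most counts of each regulator in every group. For Chac1 and Sesn2 only 1 transcript was quantified, so that its share of 100.0% was fixed. The share was 97.7 to 99.4% for Atf4, 93.6 to 97.8% for Ddit3, 86.1 to 96.5% for Nupr1 and 88.2 to 99.8% for Atf5. For Atf5 another coding transcript took 6.7 to 8.6% of counts in WT, 6.3 to 8.9% in KO, 0.3 and 3.5% in WT+P, 0.2 to 5.5% in KO+P, 5.1 and 5.2% in WT+R and 4.3 to 11.8% in KO+R libraries. Its share lay below the untreated range of the genotype in all 5 propranolol libraries and in 4 of the 5 rapamycin libraries, all but KO+R replicate 2. In the GRCm39 build the genes lie on chromosomes 15 (Atf4, 80139372 to 80141745), 10 (Ddit3, 127124268 to 127132163), 2 (Trib3, 152179337 to 152191958, and Chac1, 119180757 to 119184866), 4 (Sesn2, 132219335 to 132237815), 1 (Atf3, 190902493 to 190950241), 7 (Atf5, 44461680 to 44466082, Ppp1r15a, 45172340 to 45175692, and Nupr1, 126222414 to 126230033) and 8 (Gdf15, 71082038 to 71091537). Counts are sums over the transcripts that were quantified, untranslated regions included. These were 3 of 19 annotated transcripts for Ddit3, 1 of 6 for Sesn2 and 3 of 3 for Ppp1r15a. Shared exonic bases were taken over all annotated exons, quantified or not. Besides Ddit3, the genes that share them with neighbours were Nupr1 (21.8%), Gdf15 (17.3%), Atf5 (8.4%) and Ppp1r15a (0.4%), and Atf4, Trib3, Chac1, Sesn2 and Atf3 shared none.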

How the data were processed

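Messenger RNA of 16 libraries was sequenced without strand information. Per the submitters' processing notes, reads were trimmed with Trim Galore 0.6.7 and quantified with Salmon 1.5.2, and GRCm39 is the genome build named; the transcript index is not given in the sources used here. The deposited files hold, per transcript, the expected counts that the authors obtained with Salmon (estimates that share ambiguous reads between transcripts) and TPM, which the authors' Salmon run scales by effective length. STAR, HTSeq 0.13.5 and DESeq2 1.34.0 with R 4.2.2 are also named there, and their output was not used here.

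Expected counts of 139544 of 140789 transcripts (99.12%) were matched to GENCODE M39 and summed to 54193 genes; the rest held 0.39 to 0.57% of counts. Sums were rounded, filtered with edgeR's filterByExpr to 14838 genes and scaled by TMM. The quasi-likelihood test of edgeR 4.0.16 (R 4.3.3) was fitted to all 16 libraries in 6 groups, with 10 residual degrees of freedom and a biological coefficient of variation of 32.3%. Of 11 contrasts, 9 were between groups and 2 were interactions; calls needed an adjusted p (Benjamini-Hochberg) under 0.05 and, outside the interactions, a change above 1.5-fold. Ratios of libraries used 0.5 CPM as an offset over all genes. Levels between genes were compared in TPM. Depth was 18.83 to 26.2 M counts. Titles call the libraries biological replicates. Each p-value and SE of the main fit rests on the spread within all 6 groups and not only within the groups compared. For Ddit3 the SD was 2.02 CPM in KO and 1.29 CPM in KO+R but 84.3 CPM in KO+P. Spread between propranolol libraries thus also enters the SEs of rapamycin against untreated cells.

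Replicate numbers were checked as pairs. In the comparisons with 3 pairs, the deviations from group means of libraries with the same number correlated at 0.19 to 0.62, above 0.1 in every pair, and in those with 2 pairs at 0.45 to 0.69; the pairing comes from these values and not from the labels. A fit with the number as a block (8 residual degrees of freedom, 19% variation) was therefore an alternative whose values are given where they change a call. Other alternatives were DESeq2 1.42.0, another scaling (RLE), no filter, a length offset, only the groups compared and leaving out each library. DESeq2 with the block, leaving out all libraries numbered 1 or 2, and the block without WT replicate 1 were added after seeing the data. On simulated counts for KO+P against KO (14555 genes), the test called 30.4% of genes changed by 1 and 75.7% of those changed by 2 on the log2 scale, and 1 of 14360 unchanged genes. The simulation drew each library independently, changed genes only in KO+P and held no effect of the replicate number. Its shares therefore do not give the power in these libraries, where no gene was called higher in KO+P against KO.

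The members, lists and tests were chosen with earlier results of these data known. Named were all 10 regulators and, of each of 11 lists, up to 4 called genes with the largest change and a mean of at least 1 CPM, otherwise up to 2 with the smallest p, the 5 genes of most similar pattern, and Pdcd10. Genes named beyond this rule were chosen after their values were seen.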

Additional observations from a re-analysis of the deposited data

How the results depend on the processing

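The number of the 10 regulators called was 0 in KO vs WT, KO+R vs WT+R, KO+P vs WT+P, KO+R vs KO and both interactions under every alternative run. In KO+P against KO it was 0, but 5 with no filter on low counts, 6 with DESeq2, 8 with DESeq2 and the replicate block, and 0 to 6 when single libraries were left out. In WT+P against WT it was 0, but 4 with no filter, 6 with DESeq2, 3 with DESeq2 and the block, and 0 to 8 with single libraries left out. In KO+R against KO+P it was 6, but 1 with only the groups compared, 2 without the libraries numbered 1, 0 without those numbered 2, and 1 to 9 with single libraries left out. In WT+R against WT+P it was 1, but 5 with no filter, 7 with DESeq2, 6 with DESeq2 and the block, 0 with only the groups compared or without the libraries numbered 1 or 2, and 0 to 7 with single libraries left out. In WT+R against WT it was 0, and 2 with DESeq2 and the block. Shares of all tested genes called were not recorded for the fits without the filter, of only the groups compared or with libraries left out. The cause of these differences was not tested.

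With the replicate number as a block, which pairs libraries, the count was 1 in KO+P against KO, 0 in WT+P against WT, 8 in KO+R against KO+P and 6 in WT+R against WT+P, and with WT replicate 1 also left out it was 1 and 5 in the first and last of these. The block changed no other count of regulators called. The counts by RLE scaling and with a length offset stayed within 1.5 times those given in the text.

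Log2 fold changes reversed in 5 cases, all tied to WT+P replicate 1. Without it Trib3 and Sesn2 in WT+P against WT were at -0.10 and -0.06 (up to 2.31 and 0.90 with other libraries left out), and Gdf15 in WT+R against WT+P at 0.50 (down to -0.66). Without all libraries numbered 1, Sesn2 was at -0.14 and Gdf15 at 0.61. Another 686 kept their direction and side of the threshold, 95 gained and 42 lost the call. Groups held 2 or 3 libraries and the spread was 32.3%, and the power of the test in these libraries was not measured.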
